A study of Mus musculus with 7 samples.

Results

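The nuclear genes for subunits of the oxidative phosphorylation complexes were followed in neutrophils and in monocytes and macrophages of the infarcted mouse heart. Members were the gene rows whose symbols begin with Nduf and a, b, c, s or v before a digit, with Uqcr, with Cox4 to Cox8 or with Atp5, and the genes Sdha to Sdhd, without pseudogene names ending in -ps. The rule gave 85 Ensembl rows, 84 of the 27998 genes of the CD45+ annotation and 84 of the 31053 genes of the annotation of both pools, with 83 rows in common. By symbol they fell into complex I (37 rows), complex II (4), complex III (8), complex IV (18) and complex V (18). The rule reads symbols alone and used no measured value. Besides core and accessory subunits of the complex in the symbol, it takes in a few other genes. These are Ndufa4, whose protein is now placed with complex IV, Cox7a2l, a factor of respiratory supercomplexes, and Atp5s and Atp5sl, which are named after the synthase.

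Oxidative phosphorylation makes ATP in the inner mitochondrial membrane. Complexes I to IV pass electrons from NADH and succinate to oxygen and all but complex II pump protons, and complex V (ATP synthase) uses the proton gradient to make ATP. A few core subunits are encoded by mitochondrial DNA and all others by the nucleus, among them most of the genes described here. Neutrophils are known as cells with few mitochondria that live largely on glycolysis, whereas many tissue macrophages rely more on respiration.

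Hearts came from C57BL6/J mice, and the labels name no transgene or deleted gene. The animals of the CD45+ series and of the heart pool were male and had a permanent ligation of the left coronary artery, except at steady state, where no infarct was made. The CD45+ series was 5 libraries of CD45+ cells negative for an intravenous CD45.2 label, with 5 mice pooled at steady state, 5 each at days 1, 3 and 5, and 3 at day 7. A step that lowers neutrophil numbers came before this sort. The heart pool held CD11b+ cells, also negative for the intravenous label, with 1 hashtag antibody each for day 1 (5 mice), day 3 (5 mice) and day 5 (3 mice). The blood and heart pool held CD11b+ cells of 8- to 10-week-old mice, sex not given, under 7 hashtags from mice with no surgery, with sham surgery at day 1 or 3 and with infarction at day 1 or 3. The labels used here do not pair those 7 hashtags with conditions, so they are given by number and enter no comparison of conditions. Each time point was 1 library or hashtag of pooled mice in an experiment, so the replicates of days 1, 3 and 5 were the 2 experiments, which differ in sort, chemistry and depth. Steady state and day 7 had 1 library each and no test.

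Depth ran from 3737297 to 11587754 gene UMIs (unique transcript molecules) in the CD45+ libraries and was 107694968 UMIs in the heart pool and 88899576 in the blood and heart pool. In the heart pool 17.4% of barcodes had over 10% mitochondrial UMIs and were left out. Neutrophils and monocytes/macrophages were clusters built without the members and without mitochondrial genes, and named by markers such as S100a8, S100a9 and Csf3r or Lyz2, Csf1r and C1qa. Every sum of monocytes/macrophages had a UMI for all 18 markers of its class. The neutrophil sums of the 6 libraries and hashtags tested had 14 or 15 of 15 neutrophil markers and 17 or 18 of 18 monocyte/macrophage markers. In the CD45+ libraries the marker at 0 was Cx3cr1 at days 1 and 3 and Mrc1 at day 5. Between CD45+ libraries 0 to 2 cell barcodes were shared, and 28 between the pools.

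For 4 members whose level rose in neutrophils between days 1 and 5, and for the complex IV gene that was lower in monocytes/macrophages than in neutrophils, the 250 bases before the RefSeq start site (GRCm38.p6, strand of the gene, 5′ to 3′) are given here because the members that passed the tests are read against them below. Capitals mark matches, on either strand, to GCGC followed by any base and TGCGC (the NRF1 type, NRF1 being a known regulator of respiratory genes), to CCGGAAG (the ETS type) or to CCAAT. The windows are chr10:80249199-80249448 (plus strand) for Ndufs7, chr6:126849145-126849394 (minus) for Ndufa9, chr16:37654369-37654618 (minus) for Ndufb4, chr15:102671048-102671297 (minus) for Atp5g2 and chr19:7217617-7217866 (minus) for Cox8a.
Ndufs7: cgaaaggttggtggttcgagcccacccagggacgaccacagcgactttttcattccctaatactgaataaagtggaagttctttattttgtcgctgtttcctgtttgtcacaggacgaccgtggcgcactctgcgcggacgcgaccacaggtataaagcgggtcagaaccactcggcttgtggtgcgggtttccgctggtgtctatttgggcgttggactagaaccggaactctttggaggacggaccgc
Ndufa9: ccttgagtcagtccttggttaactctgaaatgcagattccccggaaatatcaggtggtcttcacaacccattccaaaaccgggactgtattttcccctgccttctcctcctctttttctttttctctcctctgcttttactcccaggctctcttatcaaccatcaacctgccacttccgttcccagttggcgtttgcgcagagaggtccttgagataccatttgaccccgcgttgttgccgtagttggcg
Ndufb4: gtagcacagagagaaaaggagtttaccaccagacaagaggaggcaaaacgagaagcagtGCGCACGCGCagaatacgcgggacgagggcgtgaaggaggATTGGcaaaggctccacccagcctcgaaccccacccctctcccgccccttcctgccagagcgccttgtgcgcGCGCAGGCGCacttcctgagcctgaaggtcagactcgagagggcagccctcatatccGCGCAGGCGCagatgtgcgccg
Atp5g2: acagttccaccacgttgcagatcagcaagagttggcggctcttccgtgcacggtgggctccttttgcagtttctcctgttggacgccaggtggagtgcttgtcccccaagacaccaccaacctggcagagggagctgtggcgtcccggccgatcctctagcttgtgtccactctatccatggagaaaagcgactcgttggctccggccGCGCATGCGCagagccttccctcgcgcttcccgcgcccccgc
Cox8a: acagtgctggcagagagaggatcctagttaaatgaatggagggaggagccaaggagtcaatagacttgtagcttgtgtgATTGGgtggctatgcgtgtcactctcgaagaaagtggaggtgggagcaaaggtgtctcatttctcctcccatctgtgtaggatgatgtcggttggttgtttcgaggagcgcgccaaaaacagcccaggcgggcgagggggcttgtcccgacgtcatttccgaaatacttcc

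The window of Ndufb4 held 3 NRF1-type matches and 1 CCAAT match, that of Atp5g2 held 1 NRF1-type match, and that of Cox8a held 1 CCAAT match. Those of Ndufs7 and Ndufa9 held none of the 3 letter strings. RefSeq's promoter table had 71 windows for 66 of the 84 member symbols. An NRF1-type match stood in 14 of the 71 windows (19.7%), against 3.74% of all 32851 windows of that length. An ETS-type match stood in 12 windows (16.9%, against 6.91% of all) and a CCAAT match in 30 (42.3%, against 33.9% of all). A letter match describes the window and shows no binding. By the gene spans given below, the windows of Ndufs7 and Atp5g2 lie wholly inside the gene, and that of Ndufb4 in part. The bases before the spans of Ndufs7 and Atp5g2 were not searched.

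The members together held a smaller part of the RNA in neutrophils than in monocytes/macrophages, and in neutrophils this part was larger at days 3 and 5 than at day 1. In neutrophils of the CD45+ libraries the members' share of gene UMIs was 0.801% at day 1 (exact 95% interval 0.782 to 0.820, 216 cells), 1.34% at day 3 (135 cells) and 2.27% at day 5 (2.18 to 2.36, 41 cells). Neutrophils of the heart pool had 0.564% at day 1 (252 cells), 1.21% at day 3 (992 cells) and 1.49% at day 5 (225 cells). The order of days was the same in both experiments, with intervals that did not overlap between days. All intervals cover counting error only. Relative to day 1, the share was higher on the log2 scale by 0.92 ± 0.25 at day 3 (SD, n = 2 experiments) and by 1.45 ± 0.07 at day 5, and day 5 lay 0.53 ± 0.33 above day 3. Since a share is relative to all RNA of the cells, more member RNA per cell and less of other RNA cannot be told apart.

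Monocytes/macrophages varied less over the same days. Their share was 2.10%, 2.48% and 2.59% at days 1, 3 and 5 of the CD45+ libraries (247, 641 and 763 cells) and 1.88%, 2.01% and 2.01% in the heart pool (243, 1167 and 1403 cells). Relative to day 1 the log2 change was 0.17 ± 0.10 at day 3 (SD, n = 2) and 0.20 ± 0.14 at day 5. The make-up of the class moved over the same days. C1qa, C1qb, C1qc and Apoe, complement and lipoprotein genes of many macrophages, held 0.216%, 1.20% and 4.03% of UMIs in the CD45+ libraries and 0.423%, 1.14% and 2.43% in the heart pool. Neutrophil markers held 1.93%, 0.214% and 0.068% in the former and 0.249%, 0.110% and 0.100% in the latter. The part of either in the members' share was not tested. At steady state the share was 1.63% (530 cells), lower than on any later day of these libraries, and at day 7 it was 2.32% (582 cells). Of the 530 steady-state cells 421 lay in a cluster led by Hspa1a, Atf3 and Cd83, with no class marker among its leading 10 genes, where the share was 1.55%. In the steady-state library 7 neutrophils had a share of 1.78% (1.58 to 2.01), and at day 7 28 neutrophils had 2.28%, too few for a test.

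**Figure D1:**
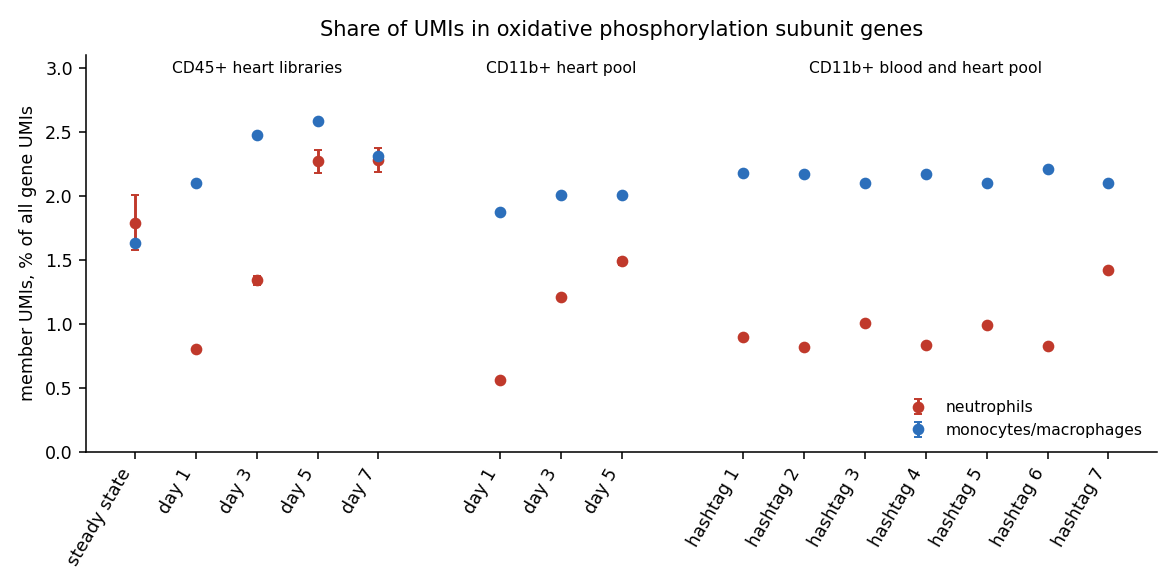
Share of gene UMIs (%, y axis) held by the subunit genes in each library or hashtag (x axis), neutrophils and monocytes/macrophages as separate colours, bars as exact 95% intervals of counting error. Neutrophils go from 0.801% to 2.27% in the CD45+ libraries and from 0.564% to 1.49% in the heart pool, below monocytes/macrophages at days 1, 3 and 5.

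In the blood and heart pool the neutrophil shares of hashtags 1 to 6 were 0.897%, 0.821%, 1.00%, 0.832%, 0.989% and 0.830%. Hashtag 7 stood above these at 1.42% (403 cells). Monocytes/macrophages of the same 7 hashtags lay between 2.10% and 2.21%. In neutrophils of hashtag 7 other RNA differed as well: S100a8 and S100a9 held 8.61% of UMIs against 17.3% to 23.3% in hashtags 1 to 6, the neutrophil markers together 10.2%, lower than in each of the other hashtags (highest 25.8%), and cytosolic ribosomal protein genes 5.86% against 3.05% to 4.39%. Their part in the higher member share was not tested. All hashtags went through the same library, but they came from mice of different conditions. The labels used here do not say which hashtags hold blood or heart cells. Tissue, condition and handling before pooling cannot be told apart here.

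Each complex followed the same course in neutrophils, with complexes I and V changing by the larger amounts. At day 5 the share of complex I was above that of day 1 by 1.66 ± 0.04 (log2, SD, n = 2), of complex V by 1.55 ± 0.15, of complex III by 1.27 ± 0.18, of complex IV by 1.26 ± 0.12 and of complex II by 1.20 ± 0.26. These differences between complexes were not tested. Complex I held 0.222%, 0.392% and 0.717% of neutrophil UMIs at days 1, 3 and 5 of the CD45+ libraries and 0.147%, 0.354% and 0.456% in the heart pool. The 4 genes of complex II, succinate dehydrogenase, held the least, from 0.011% to 0.035% over the same sums. In monocytes/macrophages complex II had the widest shift, 0.55 ± 0.28 from day 1 to day 5, while complexes III, IV and V changed by 0.16, 0.15 and 0.15.

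Other RNA moved with this difference in neutrophils. The share of UMIs from mitochondrially encoded genes was higher by 0.67 ± 0.32 at day 5 than at day 1 (log2, SD, n = 2), less than that of the nuclear members in both experiments. The share of cytosolic ribosomal protein genes was higher by 1.43 ± 0.07, about as much as the members. S100a8 and S100a9, which encode the abundant cytosolic protein calprotectin of neutrophils, went from 17.1% over 8.42% to 5.23% of neutrophil UMIs in the CD45+ libraries and from 7.59% over 4.04% to 5.39% in the heart pool. The 18 monocyte/macrophage markers together held 0.194%, 0.703% and 0.978% of neutrophil UMIs in the CD45+ libraries, against 1.31% to 6.78% in monocytes/macrophages of those days. Among them C1qa, C1qb, C1qc and Apoe held 0.0125%, 0.136% and 0.454% of neutrophil UMIs in the CD45+ libraries. In the heart pool the 18 markers held 0.304%, 0.311% and 0.345% of neutrophil UMIs, and C1qa, C1qb, C1qc and Apoe held 0.088%, 0.108% and 0.100%. The members' share of heart-pool neutrophils at day 5 was 1.40 above day 1 (log2). With mitochondrially encoded and cytosolic ribosomal genes left out of the total, the mean difference over both experiments was 1.52. The part of the fall of S100a8 and S100a9, and of the monocyte/macrophage markers in either experiment, was not tested.

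The neutrophil class was held by different clusters on different days. In the CD45+ libraries 214 of the 216 neutrophils of day 1 lay in a cluster led by Ngp, Retnlg and Lcn2, genes of granule and secreted proteins, with a member share of 0.799%. Those of day 3 (133 cells, 1.35%) and day 5 (41 cells, 2.27%) lay in a cluster led by G0s2, Il1r2 and Irg1. Both clusters carried the class markers, and the difference between days 3 and 5 within the second is read from 1 experiment.

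In the heart pool 1 cluster led by Retnlg, S100a9 and S100a8 and 1 led by Tnf, Icam1 and Dusp2 each had cells on all 3 days. In the Retnlg cluster the member share was 0.541% at day 1 (213 cells), 0.849% at day 3 (232 cells) and 0.758% at day 5 (74 cells). In the Tnf cluster it was 0.749% (39 cells), 1.33% (760 cells) and 1.77% (151 cells). Within each cluster days 3 and 5 were above day 1, and on each day the Tnf cluster was above the Retnlg cluster. Where cluster naming was made stricter the Tnf cluster had no name, and the day 1 to day 5 change of the share of neutrophils, over both experiments, was 1.00 in place of 1.45.

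**Figure D2:**
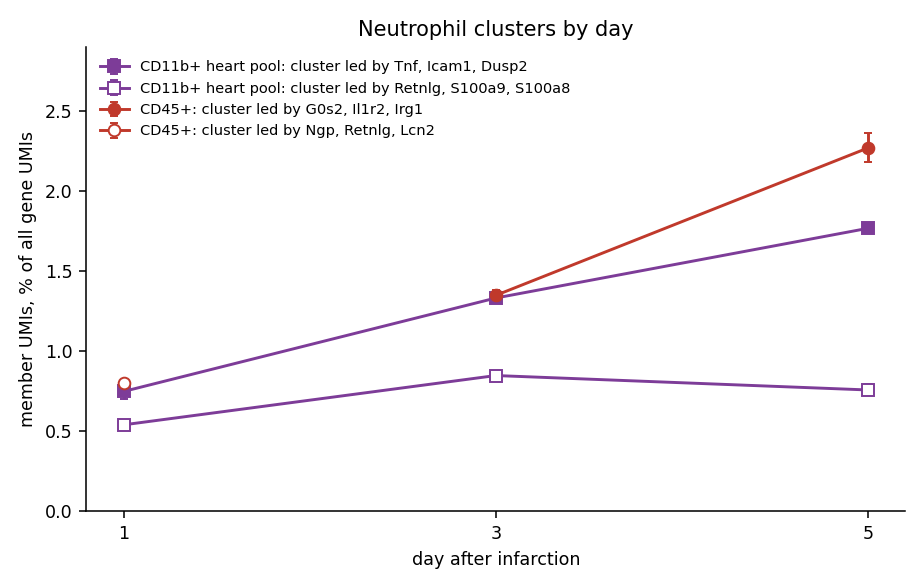
Share of gene UMIs (%, y axis) held by the subunit genes in neutrophil clusters of the CD45+ libraries and the heart pool by day after infarction (x axis), with exact 95% intervals of counting error. The heart-pool cluster led by Tnf, Icam1 and Dusp2 rises from 0.749% to 1.77%, and the cluster led by Retnlg, S100a9 and S100a8 goes from 0.541% over 0.849% to 0.758%.

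Neutrophils with a UMI of Siglecf, a surface lectin best known from eosinophils and also found on some neutrophils in tissue, had higher member shares than the others on days 3 and 5 of the heart pool and in each hashtag of blood and heart. At day 3 of the heart pool the share was 1.32% in 466 neutrophils with such a UMI and 1.10% in 526 without. At day 5 it was 1.81% in 93 cells and 1.20% in 132 cells. In hashtag 7 of the blood and heart pool it was 1.86% in 118 cells and 1.22% in 285 cells. The cells with a Siglecf UMI were also the deeper ones on both days, with a median of 4032 UMIs against 3632 at day 3 and 4506 against 3548 at day 5, and the part of depth in this difference was not tested. In hashtags 1 to 6 the shares were 0.851% to 1.12% with and 0.818% to 0.997% without a Siglecf UMI.

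Monocyte/macrophage clusters of the heart pool ranged from 1.82% to 2.54%. The cluster led by Plac8 and Arg1 had 1.82%, the cluster led by C1q genes 1.99%, and the cluster led by Fabp4 and Ctsk 2.54%. A cluster of 420 cells led by MHC class II genes, with no class marker among its leading 10 genes, had 1.98%. Among the other cells of the CD45+ libraries, dendritic cells lay between 2.03% and 2.56%, T cells between 1.99% and 2.98%, B cells at 1.83% (day 7) and 2.18% (day 5), and erythroid cells at 0.320%.

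Compared within the same library or hashtag, monocytes/macrophages had the higher share in 6 of 6 pairs of days 1, 3 and 5, by 1.86-fold on average (log2 0.89 ± 0.58, SD, n = 6 pairs, range 1.14- to 3.33-fold). The smallest ratio came from day 5 of the CD45+ libraries, with 41 neutrophils. Among the hashtags 1 to 7 of blood and heart the ratio was 1.48- to 2.66-fold, lowest in hashtag 7. By complex the mean log2 ratio over the 6 pairs was 0.95 for complex I, 1.03 for complex II, 1.02 for complex III, 0.69 for complex IV and 1.01 for complex V. For mitochondrially encoded genes it was 1.64.

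Gene by gene, most members were higher in monocytes/macrophages. Of 76 members tested, 53 were higher (69.7%) at a Benjamini-Hochberg adjusted p under 0.05 in edgeR's quasi-likelihood test with the library as a term. Of all 8563 genes tested, 33.4% were higher and 23.3% lower. The median log2 ratio was 0.82 over the members and 0.20 over all genes. The other 8 members had too few UMIs to be tested. Cox7a1 and Atp5sl did not pass the filter on low counts among neutrophil sums and entered through monocytes/macrophages, and of the 74 members that passed in neutrophils too, 52 were higher. By complex 23 of 36 tested members were higher in complex I, 4 of 4 in complex II, 7 of 8 in complex III, 7 of 12 in complex IV and 12 of 16 in complex V. Scaled by total counts alone, 64 members were higher and 0 lower, with 40.9% of all genes higher.

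**Figure D3:**
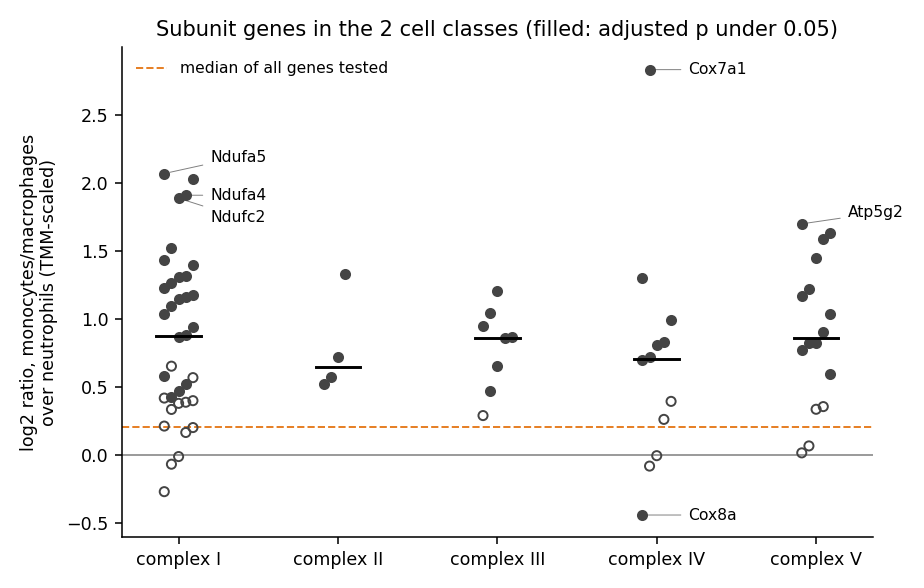
Log2 ratio of monocytes/macrophages over neutrophils (y axis) for each of 76 subunit genes by complex (x axis), from the fit over 12 sums; filled points have an adjusted p under 0.05, black bars are the medians of the complexes and the dashed line is the median of all genes. Most points lie above 0, and Cox8a is the filled point below it (log2 -0.44).

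Complex I held the largest of these differences among well-expressed genes. Ndufa5, an accessory subunit of the arm that reaches into the matrix (chromosome 6, 24518666 to 24528013, minus strand), had 20.7, 7.08 and 121 CPM (UMIs scaled to a total of 1000000) in neutrophils at days 1, 3 and 5 of the CD45+ libraries. In the heart pool it had 3.56, 10.8 and 60.3 CPM in neutrophils. In monocytes/macrophages it had 110, 118 and 144 CPM and 86.8, 111 and 110 CPM. The gap was wide at days 1 and 3 and small at day 5 of the CD45+ libraries, where neutrophils reached 121 CPM from 13 UMIs, and the day 3 value of 7.08 CPM rests on 3 UMIs. Over all 6 pairs the log2 ratio was 2.07 (SE 0.38, edgeR adjusted p = 0.00028), with monocytes/macrophages higher in 6 of 6. In hashtags 1 to 6 of the blood and heart pool Ndufa5 had 1.1 to 3.7 CPM in neutrophils and 71.9 to 90.4 CPM in monocytes/macrophages. In hashtag 7 it had 10.3 and 76.3 CPM.

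Ndufa4 had 85.2, 89.7 and 74.7 CPM in neutrophils of the CD45+ libraries and 40.1, 89.6 and 96.5 CPM in those of the heart pool. Its values in monocytes/macrophages were 436, 446 and 504 CPM and 308, 293 and 324 CPM. The classes did not overlap, and neutrophils showed no rise in the CD45+ libraries (log2 ratio of the classes 1.91, SE 0.21). Ndufc2, an accessory subunit of the membrane arm, had a ratio of 1.89 (SE 0.21), with 16.0 to 187 CPM in neutrophils and 155 to 346 CPM in monocytes/macrophages. Both passed the threshold in all 6 fits that left out a library or hashtag.

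The 3 genes Atp5g1, Atp5g2 and Atp5g3 encode the same mature protein, the c subunit of the rotor ring of ATP synthase, and all were higher in monocytes/macrophages, with log2 ratios of 1.59, 1.70 and 1.63. Atp5g1 had 56.4, 77.9 and 308 CPM in neutrophils of the CD45+ libraries and 34.7, 117 and 151 CPM in the heart pool. In monocytes/macrophages it had 369, 415 and 398 CPM and 371, 354 and 308 CPM. How reads shared by such related genes, or by their processed pseudogenes, were counted is not given in the sources used here.

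Cox8a, a small subunit of complex IV, was the only one of the 76 members lower in monocytes/macrophages by the test. In neutrophils it had 487, 678 and 999 CPM in the CD45+ libraries and 762, 956 and 1007 CPM in the heart pool. In monocytes/macrophages it had 695, 698 and 725 CPM and 732, 745 and 765 CPM. So it was lower in monocytes/macrophages in 4 of 6 pairs and higher at days 1 and 3 of the CD45+ libraries. The log2 ratio was -0.44 (SE 0.17, edgeR adjusted p = 0.0394). The call rested on the scaling and on single sums: with total counts alone the ratio was -0.12 (adjusted p = 0.64), and 2 of 6 fits without a library or hashtag kept it under 0.05 (highest adjusted p = 0.10).

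The other 22 members did not pass the threshold. Near 0 were Cox6a1 (log2 -0.08), Cox7a2 (-0.01), Atp5l (0.01), Atp5j (0.06), Ndufb9 (-0.01) and Ndufa3 (-0.07), and 17 of the 22 had a ratio above 0. Atp5l, the g subunit of ATP synthase, had 607, 862 and 1176 CPM in neutrophils and 1142, 1067 and 1111 CPM in monocytes/macrophages of the CD45+ libraries. The heart pool had 311, 566 and 617 CPM against 583, 578 and 592 CPM. By CPM, monocytes/macrophages were higher at days 1 and 3 and slightly lower at day 5 in both experiments. The neutrophil values of day 5 rest on 126 UMIs in the CD45+ libraries and 562 in the heart pool. Whether the classes differed at day 5 alone was not tested, so the values show the classes closer together than at day 1.

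Levels between genes are compared here as CPM of 3′ ends, where each transcript is counted once whatever its length. The median member had 102 CPM in neutrophils and 213 CPM in monocytes/macrophages, with 74 and 75 members at 10 CPM or more. The 10 most abundant members held 38.1% of the members' CPM in neutrophils and 31.0% in monocytes/macrophages. The highest pair by mean CPM was Ndufa2 and Ndufa13 in complex I, Sdhb and Sdhd in complex II, Uqcrq and Uqcrb in complex III, Cox8a (771 CPM) and Cox4i1 (743 CPM) in complex IV, and Atp5l (768 CPM) and Atp5e (619 CPM) in complex V.

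These abundant members differed from each other in how far the classes lay apart. Ndufa2, an accessory subunit of complex I, had a log2 ratio of 0.42 (SE 0.17, edgeR adjusted p = 0.048), and Ndufa13 had 0.16 (SE 0.18, adjusted p = 0.46). Ndufa2 was past 0.05 in 0 of the 6 fits without a library or hashtag. Sdhb, the iron-sulfur subunit of succinate dehydrogenase, had 0.72 (adjusted p = 0.0066) and the membrane anchor Sdhd 0.52 (adjusted p = 0.040, past 0.05 in 2 of those 6 fits). Uqcrb, a small subunit of complex III, had 1.20 (adjusted p = 0.0001), and its neighbour in the complex Uqcrq had 0.29 (adjusted p = 0.19). Cox4i1, a regulatory subunit of complex IV, had 0.72 (adjusted p = 0.0021) and was higher in 6 of 6 pairs. Atp5e, the epsilon subunit of ATP synthase, had 0.33 (adjusted p = 0.14).

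Tissue isoforms of complex IV were low or absent. Over days 1, 3 and 5 Cox8c and Cox7b2 had 0 UMIs in the 6 sums of each class, and Cox4i2 had 0 in the 6 neutrophil sums. Cox7a1, the heart and muscle form of subunit 7a, had 10 UMIs over the 6 neutrophil sums and 1283 over the 6 sums of monocytes/macrophages (fitted log2 ratio 2.83, SE 0.43, edgeR adjusted p = 0.00005). It entered the test through the latter class, and the fitted ratio depends on the few counts of the former. In monocytes/macrophages of steady-state heart the muscle isoforms Cox7a1, Cox6a2 and Cox8b had 35.4, 22.9 and 16.6 CPM. Cardiomyocyte marker genes held 0.0435% of UMIs there and at most 0.0031% in the other monocyte/macrophage sums. The part of cardiomyocyte RNA in the steady-state values was not tested. In the blood and heart pool Cox7a1 had 0.391 to 4.66 CPM in monocytes/macrophages, below the 10.7 to 16.8 CPM of the heart sums from day 1 to day 7.

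Between days, few members passed the test in neutrophils, although most had positive changes. From day 1 to day 3, 1 of 74 tested members rose and 0 fell, where 0.468% of all 6194 genes rose and 1.7% fell. The median log2 change was 0.42 over the members and 0.01 over all genes, and 9 members had an unadjusted p under 0.05. From day 1 to day 5, 4 of 74 rose (5.41%) and 0 fell, where 1.79% of all genes rose and 5.13% fell. The median was 0.73 against -0.02, 66 of 74 members had a positive change, and 25 had an unadjusted p under 0.05. From day 3 to day 5 the fit called 0 members and 0 genes (background 0%), with medians of 0.29 and -0.05 and 2 members at an unadjusted p under 0.05. DESeq2 called 1 gene in that comparison, which was no member. By day 5 the number of called members depended on single sums. It rose without day 1 of the CD45+ libraries and fell without day 5 of either experiment, fits that have 1 sum on that day. The 4 called members became 2 with DESeq2, which called 353 of all genes. They became 0 with no term for the experiment and 0 where the Tnf cluster of the heart pool had no name.

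The neutrophil fits with their 6 sums had low power in simulated counts. These counts had the same totals, but 1 mean profile over both classes and 1 fixed spread for all genes. The rates are thus a rough guide to the fits of the data. With a change by a log2 of 2, 44% of genes were recovered for day 3 against day 1. The rate was 30% for day 5 against day 1 and 35% for day 5 against day 3. Of 200 changed genes 156, 152 and 152 passed the filter on low counts, and the others counted as not recovered. Scaling mattered too. Without TMM, by total counts, the median change from day 1 to day 5 was 0.90 over all genes and 1.72 over the members, and 60 of 74 members rose, where 18.4% of all genes did. For day 3 against day 1 these medians were 0.68 and 1.11, and 20 members rose, where 6.34% of all genes did.

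Of the 4 members that rose by day 5, 3 belong to complex I, which holds 37 of the 85 member rows. Ndufs7, a core subunit that carries an iron-sulfur cluster near the quinone site (chromosome 10, 80249121 to 80256794, plus strand), had 8.06, 85.0 and 243 CPM at days 1, 3 and 5 of the CD45+ libraries. In the heart pool it had 25.8, 138 and 123 CPM. These values rest on 7, 36 and 26 UMIs in the CD45+ libraries and on 29, 561 and 112 UMIs in the heart pool. Day 1 was the lowest in both experiments, and days 3 and 5 changed places between them. The log2 change was 2.08 at day 3 (SE 0.50, edgeR adjusted p = 0.040) and 2.37 at day 5 (SE 0.52, adjusted p = 0.015), and 5 of 6 fits without a sum kept the latter under 0.05.

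Ndufb4, an accessory subunit of the membrane arm (chromosome 16, 37647170 to 37654453, minus strand), had 44.9, 125 and 243 CPM and 19.6, 78.3 and 148 CPM. Its day 5 value in the CD45+ libraries rests on 26 UMIs. Its values followed the order of the days in both experiments, with a log2 change of 1.67 at day 5 (SE 0.43, edgeR adjusted p = 0.032), under 0.05 in 4 of 6 fits without a sum. Atp5g2, the c subunit gene (chromosome 15, 102662864 to 102672352, minus strand), had 21.9, 68.5 and 224 CPM and 44.6, 134 and 163 CPM. Its day 5 value in the CD45+ libraries rests on 24 UMIs. Its log2 change was 1.54 (SE 0.44, edgeR adjusted p = 0.047), under 0.05 in 4 of 6 such fits and 0.054 with DESeq2.

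Ndufa9, an accessory subunit at the junction of the arms of complex I (chromosome 6, 126821721 to 126849136, minus strand), lay under the minimum of 50 CPM for named members and is named because its values passed. Its counts were low, with 4, 9 and 6 UMIs in neutrophils of the CD45+ libraries (4.60, 21.3 and 56.0 CPM) and 1, 49 and 26 UMIs in the heart pool (0.891, 12.1 and 28.5 CPM). Day 5 over day 1 was 12.2-fold in the CD45+ libraries (counting interval 2.88 to 58.6) and 32.0-fold in the heart pool (5.26 to 1312). The log2 change of the fit was 3.03 (SE 0.78, edgeR adjusted p = 0.032), under 0.05 in 3 of 6 fits without a sum.

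Of the RefSeq windows of these 4 genes, those of Ndufb4 and Atp5g2 held NRF1-type matches and those of Ndufs7 and Ndufa9 did not. As the windows of Ndufs7 and Atp5g2 lie inside the gene spans given above, this does not describe the bases before those spans. Among members higher in monocytes/macrophages 10 of 44 with a promoter window held an NRF1-type match. Among tested members called in neither direction 3 of 18 did. Cox8a, called lower, is in neither group.

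**Figure D4:**
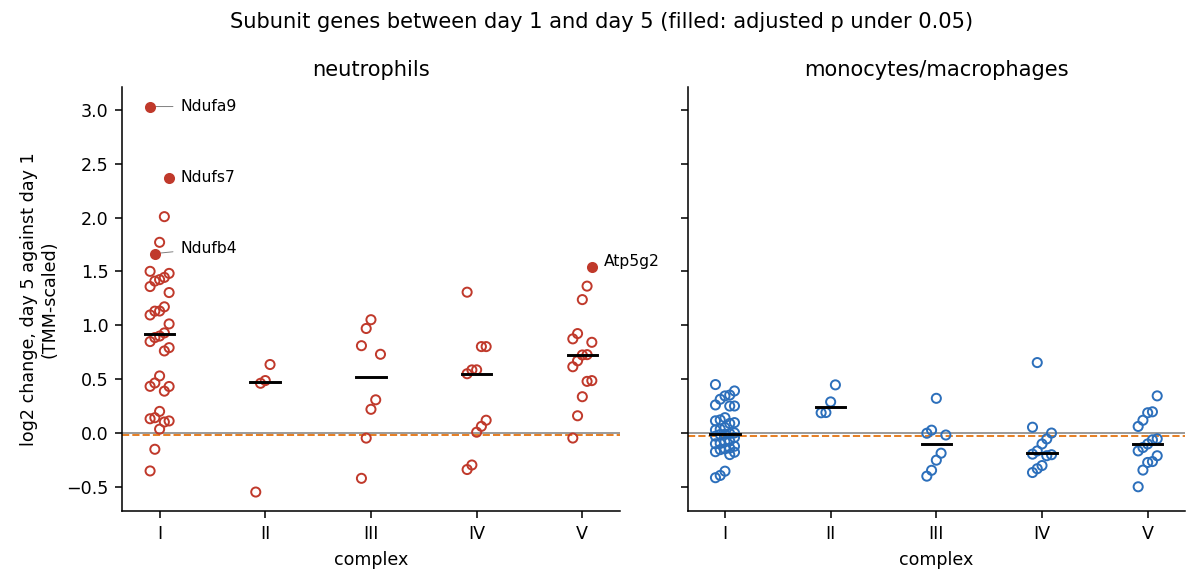
Log2 change from day 1 to day 5 (y axis) of subunit genes with a mean of at least 10 CPM, by complex (x axis), in neutrophils (left) and monocytes/macrophages (right); filled points have an adjusted p under 0.05, black bars are medians of the complexes and the dashed line is the median of all genes. In neutrophils 4 points are filled and most lie above 0, and in monocytes/macrophages none is filled and points lie on both sides of 0.

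The remaining neutrophil members had no change past the threshold. The median change by day 5 was 0.92 in complex I, 0.47 in complex II, 0.52 in complex III, 0.55 in complex IV and 0.72 in complex V. From day 3 to day 5 the largest values among members with at least 50 CPM were 1.33 for Ndufa11 (SE 0.54) and 0.85 for Ndufc2 (SE 0.43), and the lowest were -0.55 for Cox7a2l (SE 0.49) and -0.24 for Ndufa4 (SE 0.46). Ndufa11, an accessory subunit of the membrane arm, had 69.1, 40.1 and 140 CPM in the CD45+ libraries and 9.80, 33.5 and 95.4 CPM in the heart pool, so day 5 was the highest in both.

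No member passed edgeR's test between days in monocytes/macrophages. Of 80 tested members 0 passed from day 1 to day 3, where 0.0375% of 10679 genes did, from day 1 to day 5, where 10.6% did, and from day 3 to day 5, where 0.0187% did. Counts at an unadjusted p under 0.05 were 2, 7 and 1. DESeq2 called 2 members from day 1 to day 5, where it called 1689 of all 10679 genes. The median change of the members from day 1 to day 5 was -0.02, as over all genes. In simulated counts, made as for the neutrophil fits, 75%, 69% and 81% of genes changed by a log2 of 2 were recovered in these comparisons. Whether members were called from day 1 to day 5 depended on single sums, most of all on day 1 of the heart pool. A fit without it has 1 sum at day 1. Hemoglobin transcripts, a sign of red cell RNA, rose from day 1 to day 5 in these sums, by a log2 of 3.20 for Hbb-bs, and 4 of 4 such genes passed. Their part in the members' values was not tested.

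Among members of at least 50 CPM, Cox7a2l had the largest value by day 5 in monocytes/macrophages, though short of the threshold. It had 150, 230 and 277 CPM at days 1, 3 and 5 of the CD45+ libraries and 140, 196 and 270 CPM in the heart pool. These values followed the order of the days in both experiments, with a log2 change of 0.65 (SE 0.16, edgeR adjusted p = 0.055). At steady state it had 388 CPM and at day 7 439 CPM, both above day 5, and in the blood and heart pool 358 to 551 CPM. Atp5b, the catalytic beta subunit of ATP synthase, had the lowest value of -0.50 (SE 0.15, adjusted p = 0.088), with 667, 673 and 548 CPM in the CD45+ libraries and 509, 499 and 447 CPM in the heart pool. The core subunits Sdha and Ndufs8 had the largest changes by day 3, 0.49 (SE 0.21) and 0.43 (SE 0.17), and Ndufa1 and Uqcrfs1 the lowest, -0.33 (SE 0.15) and -0.31 (SE 0.16).

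Whether the day effect differed between the classes was tested as an interaction. For day 5 against day 1, 1 of 79 tested members passed, where 0.442% of 10172 genes were called with the higher change in neutrophils. This was Ndufa9, with a difference of 3.06 (SE 0.61, edgeR adjusted p = 0.046), a value that stayed under 0.05 in 4 of 12 fits without a sum. The median difference was 0.66 over the members and 0.05 over all genes, and 22 members had an unadjusted p under 0.05. Cox7b, a small subunit of complex IV, came next to the threshold with 1.55 (SE 0.38, adjusted p = 0.080), going from 50.6 over 123 to 280 CPM in neutrophils of the CD45+ libraries and from 53.5 over 185 to 244 CPM in the heart pool. No member passed for day 3 against day 1 (0.0197% of genes did, 14 members at an unadjusted p under 0.05) or for day 5 against day 3 (0%, with 1 member at an unadjusted p under 0.05). Simulated counts, made in the same way, recovered 5% of changed genes for the interaction of day 5 against day 1, a low power there.

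The genes around the complexes were described by 8 lists. For the classes, 12 of 13 mitochondrially encoded genes, 7 of 8 subunits and electron carriers outside the symbol rule, 10 of 16 genes of the citric acid cycle, 55 of 76 mitochondrial ribosomal proteins, 14 of 22 genes of mitochondrial import and 7 of 7 carriers and pores were higher in monocytes/macrophages, against 33.4% of all genes. Among the last, Slc25a4, the ADP/ATP carrier of heart and muscle, had a log2 ratio of 3.68, the pore Vdac1 1.88 and the ADP/ATP carrier Slc25a5 1.43. Lower were 3 genes of import, among them Timm10b (-0.73) and Tomm6 (-0.63), and 1 mitochondrial ribosomal protein, Mrpl33 (-0.88), against 23.3% of all genes. With total counts alone Timm10b and Tomm6 were not past the threshold (adjusted p = 0.12 and 0.34). Of 42 tested assembly factors 14 were higher (33.3%), a share close to that of all genes, and 3 lower (7.14%), among the latter the copper chaperone Cox17 (-1.48) and Pet100 (-0.81), both for complex IV. Of 9 regulators of mitochondrial genes 2 were higher (22.2%) and 2 lower (22.2%), against 33.4% and 23.3% of all genes, with Gabpb1, a partner subunit of the ETS factor GABP, at -2.61. From day 1 to day 5 in neutrophils 5 of 61 mitochondrial ribosomal proteins rose (median 1.28), with Mrpl42 at 2.70, Mrps14 at 1.91 and Mrpl57 at 1.85. The complex III assembly factor Uqcc2 rose by 2.31 and Etfb, which feeds electrons from fatty acid oxidation, by 1.82. No carrier (0 of 6), regulator (0 of 7) or mitochondrially encoded gene (0 of 12, median -0.06) rose, against 1.79% of all genes. In monocytes/macrophages 0 of 76 mitochondrial ribosomal proteins and 0 of 13 mitochondrially encoded genes passed for day 5 against day 1, where 10.6% of all genes did. Hif1a, the transcription factor of the hypoxia response, fell by 1.66 there. The ADP/ATP carrier Slc25a5 (-0.65) and Mdh2 of the citric acid cycle (-0.70) also passed, but each was under 0.05 in only 2 of 6 fits without a sum and at an adjusted p of 0.128 with total counts alone.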

How the data were processed

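The deposited matrices held UMI counts per gene and cell barcode, not normalized, from 10x Genomics 3′ libraries. Cell Ranger and the build mm10 are named per the submitters' processing notes, and the pools' file headers give version 3.0.2. How reads that match several genes were treated is not given in the sources used here. Members and lists were chosen with earlier results of these data known.

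Barcodes were kept with 200 or more genes and no more than 10% of UMIs mitochondrial. Of the CD45+ barcodes, 18 of 4763 were marked as doublets by Scrublet (scanpy 1.11.5) and removed. Hashtags were called from antibody counts, and barcodes with several hashtags (6.28% of the heart pool, 12.5% of the blood and heart pool) or none (7.81% and 1.40%) were left out, while doublets within a hashtag stayed in. Cells were clustered per experiment without member and mitochondrial genes, and clusters were named by class markers among their leading 10 genes. Where no class had one there, a cluster was named if at least 3 markers of a class were enriched (a UMI in 20% of cells, 1.5-fold over other cells) and it had at least 2 times as many as any other class. The CD45+ cluster led by Hspa1a (493 cells) and a heart-pool cluster (420 cells) were named in this way. Gene models with Gm or Rik names were left out of the leading genes, a choice made after a heart-pool cluster of 950 cells would have stayed without a name.

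UMIs were summed per class and library or hashtag with at least 30 cells, and CPM is gene UMIs scaled to 1000000 per sum. The 6 sums per class of days 1, 3 and 5 were tested with edgeR 4.0.16 (quasi-likelihood test, TMM scaling, terms for day and experiment), the classes in 12 sums with a library term, and the class by day interaction in the same 12. P-values were adjusted over all genes tested (Benjamini-Hochberg, threshold 0.05). These p-values measure the spread between pooled samples of 2 experiments. Alternatives were DESeq2 1.42.0, total counts alone, no filter, no experiment term, other naming and cell limits, and leaving out each sum. The fits were tested on simulated data. Members named with values were the highest 2 per complex, the largest changes per comparison with a mean of at least 50 CPM, and tissue isoforms and paralogs; exceptions are stated. Other features singled out beyond this rule were chosen after their values were seen.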

Additional observations from a re-analysis of the deposited data

Results flagged for a closer look

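The change of Ndufa9 from day 1 to day 5 differed between the classes by the interaction test. The difference was 3.06 on the log2 scale (edgeR adjusted p = 0.046), with the larger rise in neutrophils. Neutrophils had 4.60, 21.3 and 56.0 CPM in the CD45+ libraries and 0.891, 12.1 and 28.5 CPM in the heart pool, the lowest from 1 UMI. Monocytes/macrophages had 71.7, 91.0 and 86.8 CPM and 56.6, 62.9 and 58.8 CPM. Over fits that left out a sum the difference was 2.53 to 4.23, and it was under 0.05 in 4 of 12.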

How the results depend on the processing

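Directions of the results below held under every alternative run, and the class comparison kept its number of called members within 1.5 times (43 to 50 without a sum, against 54), with a share ratio of 0.73 to 1.04 (log2) without a sum. Counts of members called between days depended on the settings. With total counts alone they were 20 (neutrophils, day 3 against day 1), 60 (neutrophils, day 5 against day 1), 1 (monocytes/macrophages, day 5 against day 1) and 33 (difference between classes, day 5 against day 1). All these were higher. In the same order, 393 of 6194, 1138 of 6194, 590 of 10679 and 720 of 10172 genes were called higher in these fits. With no experiment term, and likewise with stricter cluster naming, neutrophils had 0 and 0 for day 3 and day 5 against day 1, and with stricter naming their share was higher by 1.00 (log2) at day 5 than at day 1. DESeq2 called 2 members for day 5 against day 1 in neutrophils and 2 in monocytes/macrophages, where it called 353 and 1689 of all genes. With no filter on low counts there were 1 (neutrophils, day 5 against day 3), 1 and 3 (monocytes/macrophages, day 3 and day 5 against day 1), and 1, 6 and 1 (difference between classes for day 3 over 1, 5 over 1 and 5 over 3). The causes were not tested.

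Leaving out a sum gave 0 to 5, 0 to 24 and 0 to 2 called members in neutrophils (day 3 over 1, 5 over 1 and 5 over 3). In monocytes/macrophages it gave 0 to 5, 0 to 14 and 0 to 1, and for the difference between classes on day 5 against day 1 it gave 0 to 6. Where an arm was left with 1 sample, that sample is assumed to vary like the others. The shares of all genes called without a sum or without the filter are not given here. These counts therefore describe how the fits vary and are no result about the members. The labels give no replicate numbers shared between groups, so the terms for library and experiment were the only blocks. The neutrophils of day 5 in the CD45+ libraries were 41 cells, and the depth of their sum limits every comparison that uses them.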
